A study of Arabidopsis thaliana with 12 samples.

Results

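The members here are 52 genes that encode subunits of the Arabidopsis 26S proteasome, chosen by a list of gene identifiers that uses no measured value. The list was drawn up with earlier results of these data known. It leaves out some further subunit genes, such as AT1G53780 and DSS1(V), and all 52 of its genes were found among the 26093 genes of the deposited table. By class, 13 encode alpha subunits and 11 encode beta subunits of the 20S core, 10 encode RPT ATPases and 18 encode RPN non-ATPase subunits of the regulatory particle. RefSeq gives a name to 40 of them, and the other members are called by their identifiers. Poly-A RNA of whole Arabidopsis thaliana seedlings in the Col-0 ecotype, grown in continuous light on plant nutrient medium, had been sequenced for 4 genotypes with 3 libraries each. The genotypes were unmutated Col-0, atg2-4 with a lesion in autophagy, the mutant lon2-8 of the peroxisomal LON2 protease, and the double mutant lon2-8 atg2-4, and each mutation is represented by 1 allele. The series design gives an age of 6 days and the growth protocol 8 days, so the age is uncertain. In all 6 single-mutant samples the genotype tag contradicts the title, each naming the other mutant. The groups here follow the titles and the matching column names of the table.

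The proteasome is a barrel of alpha and beta rings that cuts proteins marked with ubiquitin, capped by a regulatory particle whose RPT ring unfolds the substrate and whose RPN subunits bind it and remove its ubiquitin. In Arabidopsis most subunits are encoded by a pair of genes, and the transcription factors NAC053 and NAC078 raise the subunit genes together when proteasome activity falls. Autophagy is the other main route of protein disposal in plant cells and also takes up inactive proteasomes, while LON2 degrades proteins inside the peroxisome. The comparisons below ask how the subunit transcripts differ when autophagy, LON2 or both are impaired.

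The values are FPKM (fragments per kilobase of gene, scaled to library size), and 14482105 to 18691762 fragments per library could be recovered from them. Mean LON2 was 25.9 FPKM in Col-0 and 22.3 in atg2-4, against 11.6 in the libraries labelled lon2-8 and 4.78 in double mutants (SD 1.62, 0.84, 0.472 and 0.502, n = 3 each), so it was lowest in the libraries whose titles and columns name lon2-8. ATG2 had 7.71 ± 0.131 FPKM in Col-0 and 7.58 ± 0.51 in lon2-8, against 6.32 ± 0.34 in atg2-4 and 6.59 ± 0.427 in the double mutant (SD, n = 3). The leaf marker RBCS1A stood at 6748 to 8145 FPKM over all libraries and the root marker PYK10 at 643.8 to 1847, while the seed storage genes CRU3 and SESA3 reached at most 9.37 FPKM. In such whole-seedling RNA, fewer cells of a type and less RNA per cell cannot be told apart. The series design calls the 3 libraries biological replicates, and no batch is given.

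Promoter sequence is shown for 5 members whose transcripts carry the differences described below, as the 250 bases before the RefSeq gene start (assembly TAIR10.1), 5′ to 3′ on the strand of the gene. Capitals mark TGGGC or its reverse complement GCCCA, the core of the element through which NAC053 and NAC078 are known to act. RPT3, RPT2a and RPT5A encode ATPases of the ring, PAD2 and PAG1 encode alpha subunits.
RPT3 (chr5:23568802-23569051, + strand): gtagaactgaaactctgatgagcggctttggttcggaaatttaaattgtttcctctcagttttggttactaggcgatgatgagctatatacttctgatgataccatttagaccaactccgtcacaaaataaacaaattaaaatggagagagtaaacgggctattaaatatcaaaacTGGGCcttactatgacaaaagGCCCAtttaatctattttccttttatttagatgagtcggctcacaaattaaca
RPT2a (chr4:14312033-14312282, + strand): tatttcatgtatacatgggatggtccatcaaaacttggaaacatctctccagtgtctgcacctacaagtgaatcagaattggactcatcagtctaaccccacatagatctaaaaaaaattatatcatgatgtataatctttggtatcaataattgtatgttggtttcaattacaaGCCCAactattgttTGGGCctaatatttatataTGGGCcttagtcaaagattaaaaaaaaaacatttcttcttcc
RPT5A (chr3:1603109-1603358, + strand): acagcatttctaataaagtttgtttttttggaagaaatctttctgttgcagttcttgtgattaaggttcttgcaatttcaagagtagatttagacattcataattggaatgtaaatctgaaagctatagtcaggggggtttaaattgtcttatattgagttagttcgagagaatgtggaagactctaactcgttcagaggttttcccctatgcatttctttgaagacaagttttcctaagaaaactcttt
PAD2 (chr5:26438772-26439021, - strand): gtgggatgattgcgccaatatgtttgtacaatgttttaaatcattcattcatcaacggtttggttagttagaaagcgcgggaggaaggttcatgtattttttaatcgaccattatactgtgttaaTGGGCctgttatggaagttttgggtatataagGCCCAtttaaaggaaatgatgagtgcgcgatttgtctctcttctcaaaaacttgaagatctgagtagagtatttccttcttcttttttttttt
PAG1 (chr2:11531179-11531428, - strand): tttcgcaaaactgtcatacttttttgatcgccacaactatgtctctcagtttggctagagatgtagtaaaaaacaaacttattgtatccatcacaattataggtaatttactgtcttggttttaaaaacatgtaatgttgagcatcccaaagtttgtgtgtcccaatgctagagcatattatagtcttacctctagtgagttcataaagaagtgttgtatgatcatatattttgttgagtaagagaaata
RPT3 and PAD2 each hold 2 matches and RPT2a holds 3, whereas RPT5A and PAG1 hold 0 in this window. At least 1 match, counted on both strands with overlapping matches counted apart, was present upstream of 25 of the 52 members (48.1%) and of 6112 of 26092 genes of the table with a full window (23.4%). At least 2 matches were present upstream of 36.5% of the members and 13.1% of all these genes. By class the share with a match was 46.2% for alpha, 63.6% for beta, 30% for RPT and 50% for RPN genes. Of the 10 members higher in atg2-4 than in Col-0, 6 held a match, as did 11 of the 22 members lower in the double mutant than in lon2-8 and 7 of the 15 tested members that passed in no comparison. A match is a string of letters and not a binding site.

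The subunit transcripts differed far more between genes than between genotypes. FPKM here counts introns as length, so levels between genes are compared as an exon level, the fragments per kilobase of RefSeq exon scaled to the recovered library size in the manner of FPKM. RPT3 had the highest exon level, 87.4 as the mean of all 12 libraries, followed by RPT5A with 78.5, PAG1 with 77.6, RPT2a with 77.2 and PBF1 with 74.6. In Col-0 alone PAG1 led with 81.4 ± 0.665 (SD, n = 3), above RPT3 with 78.8 ± 1.38, followed by RPT5A with 72.05 ± 1.64, RPT2a with 71.5 ± 1.74, AT4G24820 with 70.8 ± 2.38 and PBF1 with 70.2 ± 0.839 (SD, n = 3). RPT5A and RPT2a differed by less than the SD of either, as did RPT2a and AT4G24820 and also AT4G24820 and PBF1. Lowest were AT4G15165 with an exon level of 1.08 as the mean of all libraries, then RPN5B with 8.95, AT3G26340 with 10.2 and MEE34 with 10.7. AT4G15165, the partner of PAC1, had 9 to 31 fragments per library and fell under the filter of at least 1 FPKM in at least 3 libraries, so 51 members were tested. These 51 had 194 to 3586 fragments per library.

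**Figure D1:**
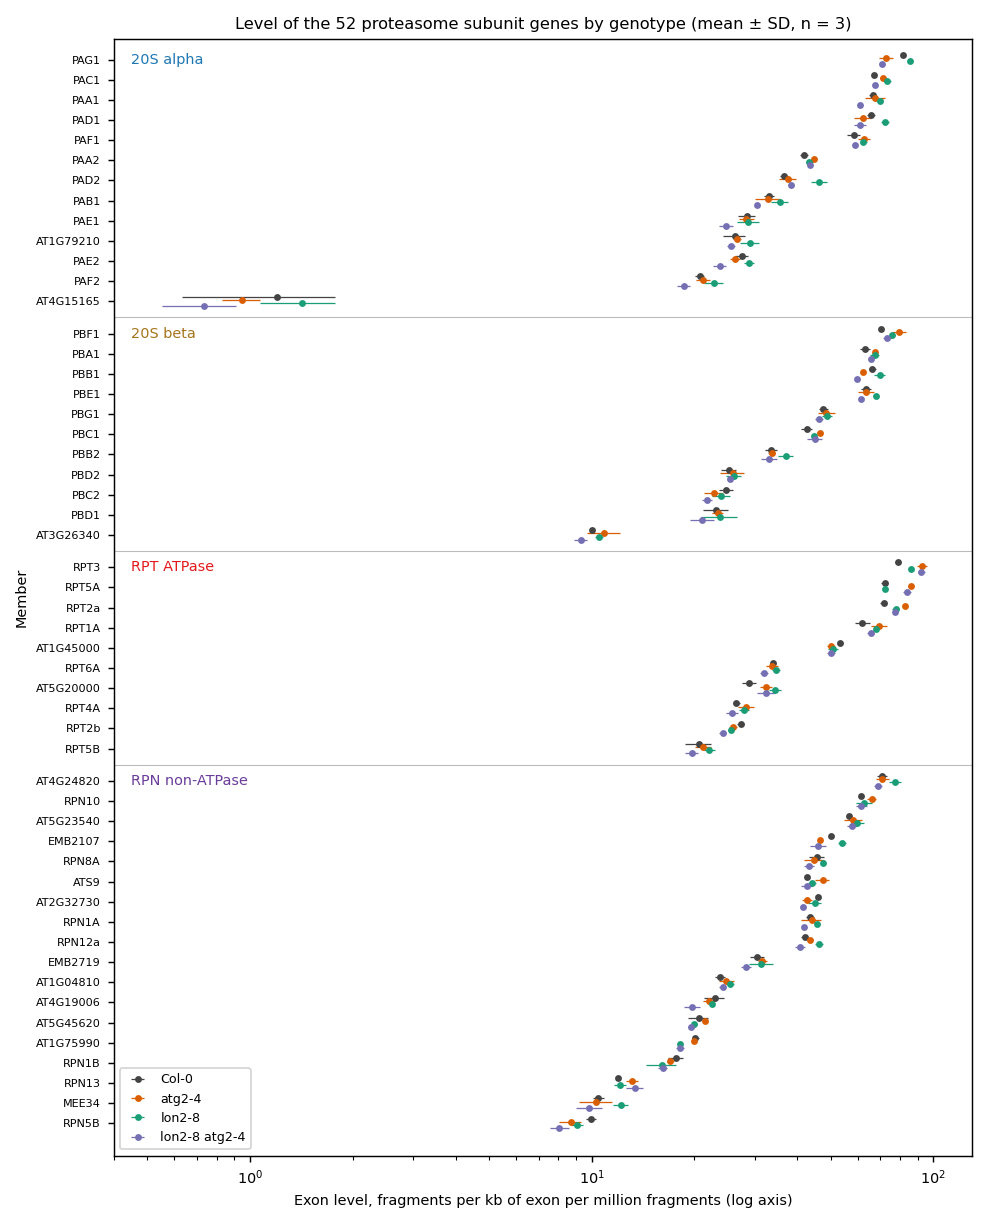
Exon level (log axis, fragments per kilobase of exon, scaled to library size) of each of the 52 members, one row a gene, with the mean ± SD of 3 libraries for each genotype in its colour. Exon levels run from 1.08 for AT4G15165 to 87.4 for RPT3 as means of all libraries, and the genotypes of 1 gene lie close together beside that range.

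The members include 20 pairs of genes for the same subunit, and the stronger gene of a pair carried 50.9 to 98.5% of the summed exon level. The share exceeded 75% in 5 pairs, PAC1 over AT4G15165 (98.5%), PBE1 over AT3G26340 (86.3%), EMB2107 over RPN5B (84.6%), RPN8A over MEE34 (80.9%) and RPT5A over RPT5B (78.9%). It stayed under 60% in 5 pairs, among them PAE1 with PAE2 (50.9%) and RPT6A with its neighbour AT5G20000 (51.2%). The mean share of the genotypes ranged over at most 4.5 percentage points within a pair, which was the RPT5A pair, with 77.8 ± 1.9% in Col-0 and 76.6 ± 0.87% in lon2-8, against 80.2 ± 1.2% in atg2-4 and 81 ± 0.96% in the double mutant (SD, n = 3). RPT2a carried 72.4 ± 0.88% of its pair in Col-0 and 76.1 ± 0.29% in the double mutant (SD, n = 3). Pairs are close in sequence and the sources do not say how reads that match both copies were counted, so the split within a pair is uncertain, most of all for RPT6A and AT5G20000.

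Genotype effects were small throughout. Over the 51 tested members and 6 comparisons the largest difference was 0.33 on the log2(FPKM + 1) scale, and 0 members passed 2-fold. With limma on log2(FPKM + 1), adjusted over the 20662 genes tested and with a threshold of 0.05, 36 members passed in at least 1 comparison and 15 in none. The share of all genes that passed in at least 1 comparison was not counted, so the 36 stand without a background. In atg2-4 against Col-0 alone, 21.3% of all tested genes were higher and 27.2% lower. The 15 were PAF1, PBA1, PBD1, PBD2, AT3G26340 and PBG1 of the core, RPT4A, AT1G45000 and RPT5B of the ATPases, and RPN1B, AT1G04810, EMB2719, AT5G45620, RPN10 and AT5G23540. The comparisons against Col-0 share its 3 libraries, and those with the double mutant share its 3 libraries.

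Summed over a class, exon levels ordered the genotypes differently in the RPT class than in the others. The 13 alpha genes summed to 545.7, 559.1 and 559.2 in wild type and to 546.1, 550.3 and 567.4 in atg2-4. The lon2-8 libraries gave 589, 591.4 and 616.6, and the double-mutant libraries 525.2, 528.7 and 521.3. The lon2-8 libraries were above and the double-mutant libraries below all others, and atg2-4 overlapped Col-0. For the 10 RPT genes the sums were 471.4, 474.4 and 479 in wild type and 509.4, 524.8 and 531.8 in atg2-4. They were 497.2, 495.6 and 504.5 for lon2-8 and 506.9, 495.8 and 505.8 for double mutants. Here all Col-0 libraries lay below all mutant libraries, and the mean exceeded that of Col-0 by 9.91% in atg2-4, 5.09% for lon2-8 and 5.87% for double mutants. The beta sums had means of 470.3 ± 3.17 for Col-0, 484 ± 9.45 for atg2-4, 494.9 ± 5.93 for lon2-8 and 461.8 ± 2.1 for double mutants (SD, n = 3). The RPN sums had means of 626.7 ± 11.2, 633.3 ± 19.7, 648.9 ± 11.6 and 601 ± 11.3 in the same order (SD, n = 3). In both of these classes atg2-4 overlapped Col-0, lon2-8 lay above Col-0 and the double mutant below it. The sums are given as values with no test. Centring each library on its median left the sign of the members' median difference the same in all 6 comparisons and moved the median of all genes by less than 0.1 on the log2 scale. The class sums were not recomputed with centred libraries, so their order under that scaling is not known.

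**Figure D2:**
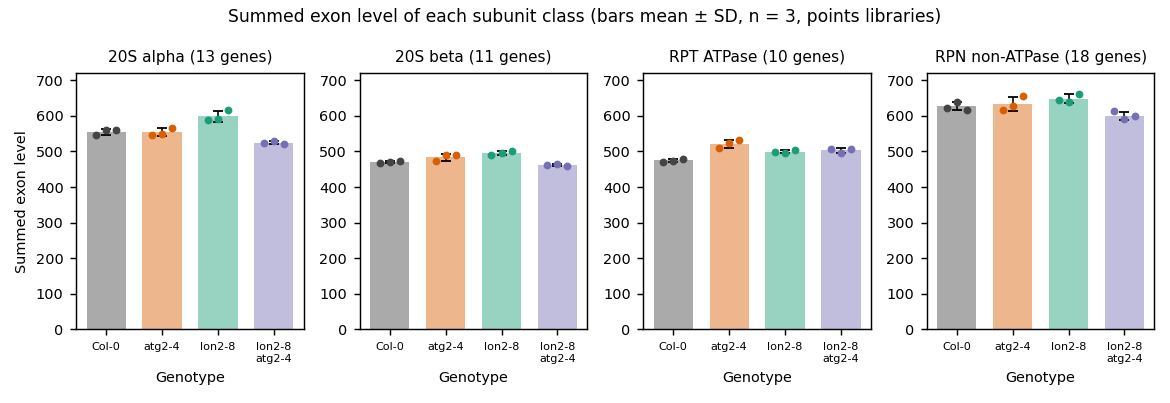
Summed exon level of the genes of each subunit class by genotype, with bars for the mean, error bars for the SD of 3 libraries and points for single libraries. Alpha sums have a mean of 599 in lon2-8 and 525 in the double mutant, and RPT sums are lowest in Col-0 with a mean of 474.9. The median exon level of the RPT genes, not drawn here, was highest in Col-0.

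In atg2-4, where autophagy is impaired, 5 of the 10 subunit transcripts that rose encode ATPases of the ring. Against Col-0, 10 of 51 members (19.6%) were higher and 4 (7.8%) lower, beside 21.3% of all tested genes higher and 27.2% lower. The share of members higher is near that background. Of the 10 RPT genes, 5 were higher and 0 lower (unadjusted p under 0.05 in limma, 5 higher and 1 lower; limma voom on recovered fragments, 5 higher and 0 lower), while 2 of 12 alpha, 2 of 11 beta and 1 of 18 RPN genes were higher. The median difference was 0.12 for RPT genes, 0.03 for all members and -0.05 for all genes tested, on the log2 scale. AT1G53780, annotated as an ATPase of the regulatory complex and not a member here, fell from a mean of 11.82 FPKM in Col-0 to 9.193 in atg2-4. The RPT counts leave it out. A difference between the classes was not tested.

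RPT5A stood at 41.8, 42.3 and 43.7 FPKM in Col-0 and at 49.9, 52.1 and 50.5 in atg2-4. RPT3 had 58.6, 57 and 58.9 FPKM in Col-0 and 65.8, 69.1 and 70 in atg2-4. RPT2a, known in Arabidopsis for its part in keeping the root meristem, had 50.5, 49.1 and 51.5 FPKM in Col-0 and 57.4, 58 and 58.8 in atg2-4. For these 3 ATPase genes every atg2-4 library exceeded every Col-0 library. The log2 differences were 0.25 ± 0.03 for RPT5A (SE, limma, adjusted p = 4.61e-05), 0.23 ± 0.03 for RPT3 (SE, limma, adjusted p = 7.51e-05) and 0.20 ± 0.03 for RPT2a (SE, limma, adjusted p = 0.000149), which are rises of 19.2, 17.5 and 15.3% in mean FPKM. RPT1A rose by 11.7% and AT5G20000 by 11.9%, with limma adjusted p = 0.013 and 0.0295, and the RPT1A libraries of both genotypes overlapped. The call for RPT1A was lost without Col-0 library 1 or atg2-4 library 3, with an adjusted p of up to 0.0584 in limma, and that for AT5G20000 without Col-0 library 1 or 3 or atg2-4 library 1 or 3, with up to 0.105. The remaining ATPase genes did not pass, among them RPT2b (-0.07), RPT6A (-0.01) and AT1G45000 (-0.09) on the log2 scale.

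Among core genes, PBF1 of the beta ring rose from 35.6, 35.5 and 34.8 FPKM to 38, 41.5 and 40.4, a log2 difference of 0.17 ± 0.04 (SE, limma, adjusted p = 0.00195). PAG1 went the other way, from 37.8, 37.3 and 37.2 FPKM in Col-0 to 33, 32.1 and 35.2 in atg2-4, with a log2 difference of -0.16 ± 0.04 (SE, limma, adjusted p = 0.00276). The groups did not overlap for either gene, and both calls held in all 19 alternatives run. PBC1, PAC1 and PAA2 rose by 9.1, 5.9 and 6.6%, and PBB1 fell by 6.3%, with limma adjusted p of 0.029, 0.0424, 0.0486 and 0.0486. Of the lid and base subunits, ATS9 (also called RPN6) rose by 10.8% (limma, adjusted p = 0.0111). RPN5B fell by 12.8% and AT2G32730, a gene of the large Rpn2 scaffold, fell by 7% (limma, adjusted p = 0.0354 and 0.0486). The PAC1, PAA2, PBB1 and AT2G32730 calls held in 6, 4, 6 and 8 of 19 alternatives, and each was lost without any 1 of the Col-0 or double-mutant libraries, among others, with limma adjusted p of up to 0.116, 0.172, 0.167 and 0.141 over the alternatives. ATS9 was lost without atg2-4 library 3 (limma, adjusted p = 0.0517), PBC1 without Col-0 library 1 or 2 or atg2-4 library 2 (up to 0.108), and RPN5B without Col-0 library 1 or 3 or atg2-4 library 1 or 2 (up to 0.111). The ubiquitin receptor RPN10 had 39.1 to 39.3 FPKM in Col-0 and 41.3 to 43.7 in atg2-4 and did not pass (limma, log2 difference 0.11, adjusted p = 0.0529). Counts rested on single libraries, with 5 members higher without Col-0 library 1 and 6 without atg2-4 library 3. The number lower was 1 without Col-0 library 1 or 3 or atg2-4 library 1 or 2, and 2 without Col-0 library 2 or double-mutant library 2 or 3.

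**Figure D3:**
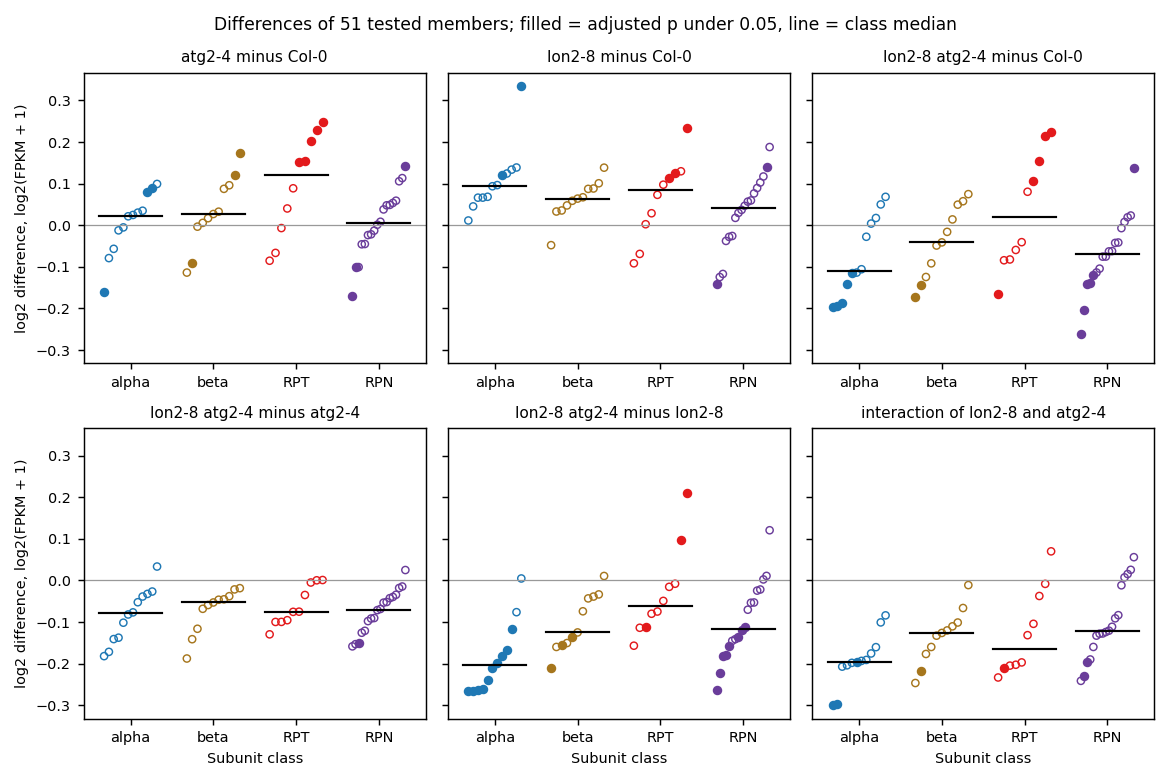
Log2 difference on the log2(FPKM + 1) scale for the 51 tested members in each comparison, by subunit class, with filled points for a limma adjusted p under 0.05 and a black line at the class median. In atg2-4 against Col-0, 5 of 10 RPT points are filled above 0, and in the double mutant against lon2-8, 10 of 12 alpha points are filled below 0.

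In lon2-8, 7 members passed, and the member that rose most was the alpha gene PAD2. Against Col-0, 6 members (11.8%) were higher and 1 (2%) was lower, beside 9.06% of all tested genes higher and 14.1% lower. PAD2 had 25.6, 24.8 and 26.2 FPKM in Col-0 and 31.4, 31.6 and 34.5 in lon2-8, a rise of 27.1% and a log2 difference of 0.33 ± 0.05 (SE, limma, adjusted p = 0.000253). The groups did not overlap, and the call held in all 19 alternatives. Its paralog PAD1 had 37.6, 39.8 and 38.6 FPKM in Col-0 and 42.8, 41.2 and 43.7 in lon2-8 and did not pass (limma, log2 difference 0.13 ± 0.05, adjusted p = 0.0545).

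AT5G20000, an ATPase gene beside RPT6A, rose by 18.6% in lon2-8 (limma, log2 difference 0.23 ± 0.05, adjusted p = 0.00674), from 16, 17.3 and 15.9 FPKM to 20.1, 18.6 and 19.7. RPT3 and RPT2a rose by 9.3 and 8.4% (limma, adjusted p = 0.0136 and 0.0188), PAC1 by 8.9% and RPN12a, a lid gene known in Arabidopsis for its link to cytokinin response, by 10.5% (limma, adjusted p = 0.0125 and 0.0194). AT1G75990, a subunit gene with a PAM domain, fell by 10% (limma, adjusted p = 0.0182). RPT5A, high in atg2-4, had 42.1, 42.9 and 43.1 FPKM in lon2-8 and overlapped Col-0 (limma, log2 difference 0.00, adjusted p = 0.969). None of the 11 beta genes passed, with 4 higher and 0 lower at an unadjusted p under 0.05 in limma and 1 higher in limma voom, but with each library centred on its median 5 were higher and 0 lower.

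The count in lon2-8 depended on the scaling of the libraries. With each library centred on its median, 20 members were higher and 0 lower, beside 12.5% of all tested genes higher and 8.8% lower. The limma voom fit on recovered fragments gave 11 higher and 1 lower, beside 10.2% of all tested genes higher and 17.2% lower. Centring moved the median of all genes from -0.04 to 0.01 and that of the members from 0.07 to 0.11, so the members' median was above that of all genes under both scalings. Without lon2-8 library 3 the number higher was 3. The number lower was 0 without Col-0 library 1 and 2 without lon2-8 library 1. PAC1, RPT2a and RPN12a lost their calls without lon2-8 library 3, RPT3 and RPT2a without Col-0 library 2, RPN12a also without Col-0 library 3 or lon2-8 library 2, and AT1G75990 without Col-0 library 1. Their limma adjusted p then reached at most 0.106. Root markers differed between the genotypes too, as PYK10 had means of 1143 ± 14.1 for Col-0, 652.2 ± 11.6 for atg2-4, 1773 ± 65.6 for lon2-8 and 723.7 ± 9.98 FPKM for double mutants (SD, n = 3). PRP3, the other root marker, had 270.9 ± 34.2, 308.1 ± 9.17, 422.5 ± 70.3 and 229 ± 17.4 FPKM in the same order (SD, n = 3). Of the leaf markers, RBCS1A had 7157 ± 75, 7007 ± 283, 7836 ± 273 and 7346 ± 176 FPKM in that order, and CAB2 had 2131 ± 38.9, 1880 ± 63.5, 2035 ± 85.2 and 1597 ± 30.3 FPKM (SD, n = 3). Against Col-0 in lon2-8, RBCS1A was higher by 0.13 on the log2 scale (limma, adjusted p = 0.0251), and CAB2 did not pass, at -0.07. Of the seed markers, CRU3 had 2.64 ± 0.695, 1.08 ± 0.819, 3.17 ± 0.904 and 0.464 ± 0.277 FPKM and SESA3 6.21 ± 2.75, 1.38 ± 0.453, 0.814 ± 0.611 and 0.941 ± 0.231 in that order (SD, n = 3). SESA3 fell by 1.98 in lon2-8 (limma, adjusted p = 0.000124). The part of tissue makeup in the members' differences was not tested.

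In the double mutant the ATPase genes RPT3 and RPT5A were high while 7 core genes and 5 RPN genes were low. Against Col-0, 5 members (9.8%) were higher and 13 (25.5%) lower, beside 22% of all tested genes higher and 30.1% lower. The share of members lower did not exceed that background. RPT3 had 68.5, 66.3 and 69.3 FPKM (17% above Col-0, limma, log2 difference 0.22 ± 0.03, adjusted p = 7.78e-05) and RPT5A had 48.9, 48.7 and 51.2 (16.3%, limma, log2 difference 0.21 ± 0.03, adjusted p = 0.000145). Both ranges lay above all Col-0 libraries. RPT2a rose by 7.8%, AT5G20000 by 12% and the ubiquitin receptor gene RPN13 by 12.2% (limma, adjusted p = 0.012, 0.0272 and 0.0499). RPT2b, the weaker paralog of RPT2a, had 19.3, 19.3 and 18.6 FPKM in Col-0 and 17, 17.2 and 16.4 in the double mutant, a fall of 11.5% (limma, log2 difference -0.17 ± 0.04, adjusted p = 0.00233). Of this pair, then, 1 gene passed upwards and the other downwards.

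Lower members included 5 of 12 alpha, 2 of 11 beta, 1 of 10 RPT and 5 of 18 RPN genes. PAG1 had 32.8, 32.9 and 32.2 FPKM in the double mutant, 12.9% below Col-0 (limma, log2 difference -0.19 ± 0.04, adjusted p = 0.000648). RPN5B was 19.1% lower, at 4.88, 5.26 and 5.54 FPKM against 6.67, 6.26 and 6.47 in Col-0 (limma, log2 difference -0.26 ± 0.06, adjusted p = 0.00302). PBB1, of the beta ring, was 9.8% lower, PAE2 13.8%, AT4G19006 14.1% and AT1G75990 9.8% (limma, adjusted p = 0.0041, 0.00424, 0.00615 and 0.0084). The libraries of the double mutant lay below those of Col-0 in each of these genes. The other 6 were AT2G32730, PAE1, PBC2, EMB2107, PAF2 and PAA1, with falls of 8 to 12.9% and limma adjusted p of 0.00883 to 0.0481. The number higher was 3 without any 1 of the Col-0 libraries or double-mutant library 1, and the number lower was 8 without double-mutant library 3. RPT2a lost its call without Col-0 library 2 (limma, adjusted p = 0.0594) and AT5G20000 without Col-0 library 1 or 3 or double-mutant library 1 (up to 0.126). PAE1 was lost without Col-0 library 2 or 3 or double-mutant library 1 or 3, PBC2 without Col-0 library 3 or double-mutant library 2 or 3, and EMB2107 without Col-0 library 1 or 2 or double-mutant library 2 or 3, with limma adjusted p of up to 0.1. RPN13 kept its call in 4 of 19 alternatives, and PAA1 and PAF2 in 7 and 10, and each was lost without any 1 of the Col-0 libraries, with limma adjusted p of up to 0.189.

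**Figure D4:**
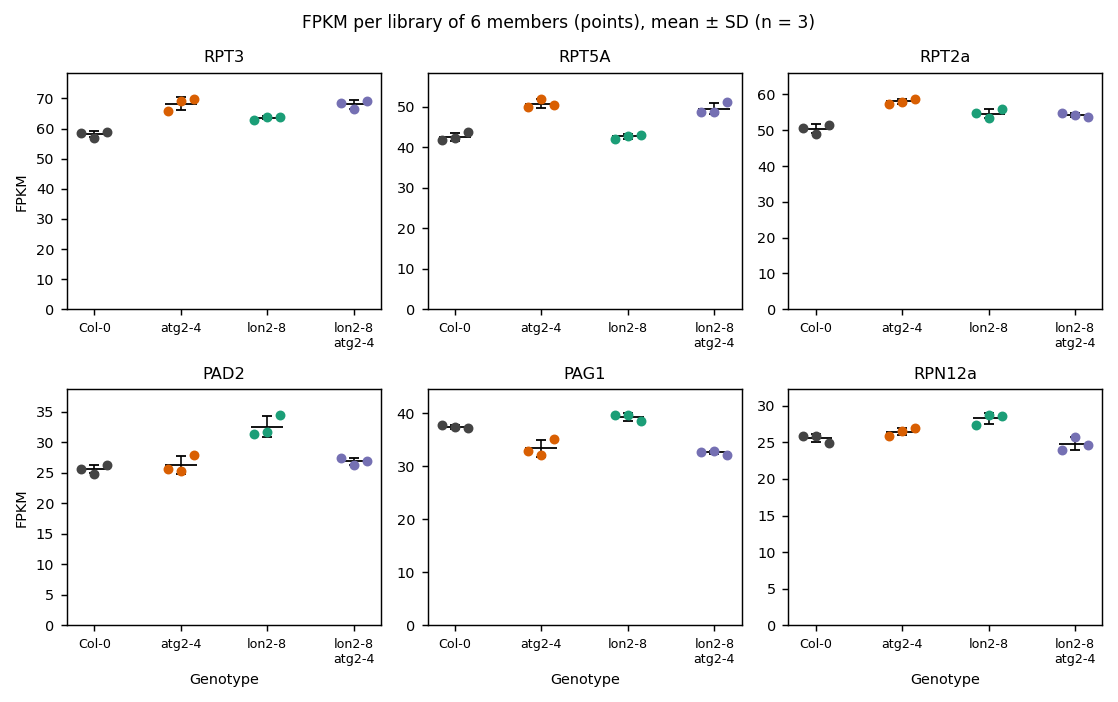
FPKM of 6 members in every library by genotype (points), with a bar for the mean and error bars for the SD of 3 libraries, on axes that start at 0. RPT3 and RPT5A are high in atg2-4 and the double mutant, PAD2 is high in lon2-8 with 31.4 to 34.5 FPKM, and PAG1 is low in atg2-4 and the double mutant.

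Few members separated the double mutant from atg2-4. Against atg2-4, 0 members were higher and 1 lower, beside 4.44% of all tested genes higher and 4.44% lower. ATS9 fell from 38.9, 41.1 and 42.7 FPKM in atg2-4 to 38.3, 35.8 and 36.2 (limma, log2 difference -0.15 ± 0.04, adjusted p = 0.0385), and this call held in 9 of 19 alternatives. Its limma adjusted p reached 0.142. It was lost without any 1 of the Col-0 libraries, atg2-4 library 2 or 3 or double-mutant library 2 or 3, and the count lower was 2 without atg2-4 library 1 or 3. At an unadjusted p under 0.05 in limma, 0 members were higher and 17 lower, and the share of all genes at that threshold was not counted. With limma voom 0 were higher and 4 lower, beside 5.7% of all tested genes higher and 6.65% lower. The median of the members was -0.07 and that of all genes -0.02, and 4 of 51 members had a difference above 0.

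Against lon2-8, most alpha genes were lower in the double mutant. Of the members, 2 (3.9%) were higher and 22 (43.1%) lower, beside 25.3% of all tested genes higher and 24.6% lower. Lower genes made up 10 of 12 alpha, 3 of 11 beta, 1 of 10 RPT and 8 of 18 RPN members, and the 2 higher genes were RPT5A and RPT3. PAG1 fell by 17%, from 39.7, 39.7 and 38.5 FPKM in lon2-8 (limma, log2 difference -0.26 ± 0.04, adjusted p = 5.53e-05). PAD2 fell by 17.4%, PAE2 by 18%, PAF2 by 18.1% and PAD1 by 15.6% (limma, adjusted p = 0.000442, 0.000564, 0.00125 and 0.000795). PAF2, for example, had 13.7, 12.6 and 14.3 FPKM in lon2-8, against 11.5, 10.5 and 11.2 in double mutants. PBB1 fell by 14.1%, EMB2107, which encodes RPN5, by 14.6% and RPN12a by 12.2% (limma, adjusted p = 0.000256, 0.000526 and 0.00149). RPT5A was 16.2% higher (limma, log2 difference 0.21 ± 0.03, adjusted p = 0.000162), and its call held in all 19 alternatives.

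The 2 alpha genes tested that did not pass in that comparison were PAA2 and PAF1. With libraries centred on their medians, 1 member was higher and 32 lower, beside 21.9% of all tested genes higher and 29.1% lower, and the lower ones then included 7 of 11 beta and 4 of 10 RPT genes. RPT3 was the call lost upwards, and it was also lost without lon2-8 library 1 or 2 or double-mutant library 1 or 3, each of which left 1 member higher (limma, adjusted p of RPT3 up to 0.165). The number lower was 16 to 24 when single libraries were left out. PAE1 and PBB2 lost their calls without lon2-8 library 3 or double-mutant library 1, AT1G79210 without these or double-mutant library 3, and AT4G19006 without double-mutant library 3. RPT6A was lost without lon2-8 library 2 or 3 or double-mutant library 1 or 2, and AT2G32730 without lon2-8 library 1 or double-mutant library 2 or 3. RPN8A was lost without Col-0 library 1, any 1 of the lon2-8 libraries or double-mutant library 2 or 3, and RPN1A without Col-0 library 1 or 2 or any 1 library of lon2-8 or the double mutant. The limma adjusted p of these 8 genes reached at most 0.131, and the other 14 lower calls held in all 19 alternatives. PYK10 fell by 1.29 and PRP3 by 0.87 on the log2 scale in the same comparison (limma, adjusted p = 2.74e-12 and 1.74e-05). The leaf marker CAB2 and the seed marker CRU3 were lower too, at -0.35 and -1.51 (limma, adjusted p = 3.93e-06 and 0.000203). RBCS1A at -0.09 and SESA3 at 0.14 did not pass. The part of tissue makeup in the alpha result was not tested.

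The interaction asks whether the effect of lon2-8 in atg2-4 plants differs from its effect in Col-0 plants. Of the members, 0 were above 0 and 7 (13.7%) below 0 past the threshold, beside 7.1% of all tested genes above and 6.08% below. The 7 were RPT2a (-0.21 ± 0.04), PAC1 (-0.20 ± 0.04), PAD2 (-0.30 ± 0.07), RPN12a (-0.23 ± 0.05), PBF1 (-0.22 ± 0.05), PAF2 (-0.30 ± 0.08) and ATS9 (-0.20 ± 0.06) on the log2 scale (SE, limma), with adjusted p from 0.00737 to 0.0404. For PAD2 the lon2-8 effect was 0.33 in Col-0 plants and 0.03 in atg2-4 plants. For RPT2a it was 0.11 in Col-0 plants and -0.10 in atg2-4 plants, where the atg2-4 effect alone was 0.20. At an unadjusted p under 0.05 in limma, 27 members were below 0 and 0 above, and the share of all genes at that threshold was not counted. With limma voom 12 were below and 0 above, beside 9.23% of all tested genes above and 7.34% below. The median interaction was -0.13 over the members and 0.03 over all genes tested, and 5 of 51 members were above 0. With libraries centred, 14 members were below 0 and 0 above, beside 5.52% of all tested genes above and 7.49% below, and 5 of the 14 were RPT genes. PAF2 lost its call (limma, adjusted p up to 0.0598) without Col-0 library 1 or 2, atg2-4 library 3, lon2-8 library 3 or double-mutant library 2, and ATS9 held in 8 of 18 alternatives and was lost without Col-0 library 1, 2 or 3, atg2-4 or lon2-8 library 2 or 3 or double-mutant library 2 or 3 (up to 0.0928).

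In the authors' deposited table, at a false discovery rate under 0.05, 15 members were higher and 0 lower in atg2-4, 20 and 0 for lon2-8, 9 and 2 for double mutants, all against Col-0. For the double mutant against atg2-4 the authors' deposited table gave 0 higher and 0 lower. The share of all genes called by the authors was not counted, so these member counts stand without a background. Of the calls made here, 10, 6 and 6 were shared with the authors' deposited table in the 3 comparisons against Col-0. The 4 members lower here in atg2-4, PAG1 among them, and the 1 lower in lon2-8 were not called lower there. In the double mutant 13 were lower here, against the 2 of the authors. The sources do not say how that rate was computed.

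Genes that supply ubiquitin or deliver substrates were mostly higher in atg2-4, by up to 0.60 on the log2 scale. The list of ubiquitin genes, ubiquitin-activating enzymes, shuttle proteins and the CDC48 unfoldase holds 21 genes, of which 12 were higher and 2 lower in atg2-4 against Col-0, beside 21.3 and 27.2% of all tested genes, with a median of 0.25 on the log2 scale against -0.05 for all genes. UBQ10, which encodes polyubiquitin, had 646.4, 658.7 and 666.2 FPKM in Col-0 and 872, 918.2 and 906.2 in atg2-4 (limma, log2 difference 0.45 ± 0.03, adjusted p = 4.37e-08). Every atg2-4 library lay above every Col-0 library. All 5 polyubiquitin genes of the list rose, as UBQ4 did by 0.48, UBQ14 by 0.35, UBQ3 by 0.34 and UBQ11 by 0.34 (limma, adjusted p = 1.88e-06, 5.31e-05, 2.77e-06 and 6.78e-06). These genes hold near-identical repeats, so reads may be split between them in a way that the sources do not give. AtCDC48B, of the unfoldase family that pulls ubiquitin-marked proteins from complexes, rose by 0.60 ± 0.06 (SE, limma, adjusted p = 1.84e-06).

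In the double mutant 11 of these 21 genes were higher and 2 lower against Col-0, beside 22 and 30.1% of all tested genes, and 11 and 2 against lon2-8, beside 25.3 and 24.6%. In lon2-8 against Col-0 2 were higher and 1 lower, beside 9.06 and 14.1%. UBA 2, an activating enzyme, was among the lower genes in atg2-4 and in the double mutant, at -0.21 and -0.30 on the log2 scale against Col-0 (limma, adjusted p = 0.00878 and 0.000659). Against atg2-4 the double mutant had 0 of 21 higher or lower (limma, unadjusted p under 0.05, 0 higher and 2 lower, and limma voom, 0 higher and 1 lower). Of all tested genes, 4.44% were higher and 4.44% lower in that comparison. UBQ10 had 644.3, 668.3 and 662.8 FPKM in lon2-8, overlapping Col-0, and UBQ11 fell by 0.13 there (limma, adjusted p = 0.0206). For the interaction 0 of 21 passed (limma, unadjusted p under 0.05, 0 higher and 3 lower, and limma voom, 0 higher and 1 lower), and 0 were higher and 2 lower with libraries centred. Without centring, the interaction passed for 7.1% of all tested genes above 0 and 6.08% below.

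**Figure D5:**
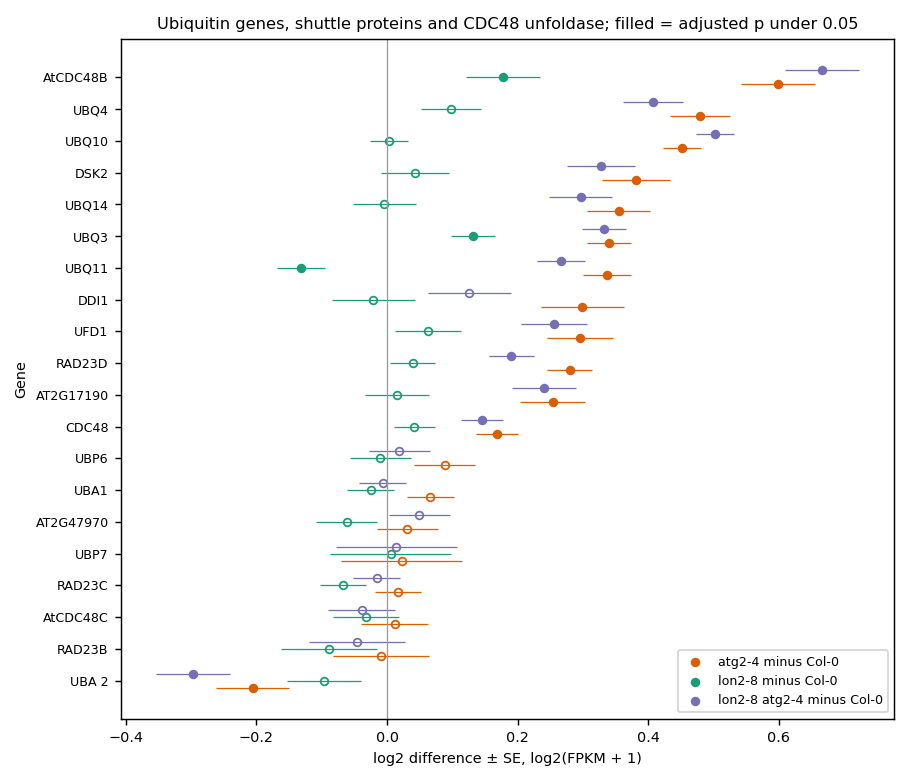
Log2 difference ± SE on the log2(FPKM + 1) scale for 20 of the ubiquitin-pathway genes in each mutant against Col-0, ordered by the difference in atg2-4, with filled points for a limma adjusted p under 0.05. Most of the upper genes, with UBQ10 at 0.45 and AtCDC48B at 0.60 in atg2-4, are also high in the double mutant and near 0 in lon2-8.

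Among 14 regulators, assembly factors and alternative subunits, 13 were tested, and 5 were higher and 1 lower in atg2-4, beside 21.3 and 27.2% of all tested genes. PA200, which encodes an alternative cap of the core, had 9.61, 9.33 and 9.92 FPKM in Col-0 and 15.1, 13.2 and 14.5 in atg2-4 (limma, log2 difference 0.52 ± 0.05, adjusted p = 4.62e-06). In lon2-8 it had 9.64, 8.82 and 9.61 and in the double mutant 13.8, 13.2 and 13.9, so it was high in both genotypes with atg2-4. NAC053, the transcription factor of the subunit genes, rose in all mutants against Col-0, by 0.29 for atg2-4, 0.20 for lon2-8 and 0.38 for double mutants (limma, adjusted p = 0.000592, 0.0158 and 5e-05). NAC2, the RefSeq name of NAC078, passed in 0 of the 6 comparisons, with means of 20.04 FPKM in lon2-8 to 22.7 in atg2-4. AT1G53780, annotated as an ATPase of the regulatory complex and not a member here, was lower in all mutants, at -0.33, -0.26 and -0.29 (limma, adjusted p = 0.000141, 0.00233 and 0.000325). In atg2-4 AT3G15180 rose by 0.31, AT3G53970, annotated as a proteasome inhibitor, by 0.20 and DSS1(V), a small lid subunit gene, by 0.18 (limma, adjusted p = 0.00434, 0.0146 and 0.0114). AT2G26780 fell by 0.22 in lon2-8, and AT5G57950 rose by 0.19 in the double mutant (limma, adjusted p = 0.0115 and 0.0428 against Col-0). Of these 13 genes, 1 was higher and 2 lower in lon2-8 and 3 higher and 1 lower in the double mutant against Col-0. Beside these stand 9.06 and 14.1%, and 22 and 30.1% of all tested genes, so the share higher in the double mutant is near the background. Against lon2-8 the double mutant had 3 higher and 1 lower, and against atg2-4 0 higher or lower (limma, unadjusted p under 0.05, 0 higher and 2 lower, and limma voom, 0 and 0). Of all tested genes, 25.3% were higher and 24.6% lower against lon2-8, and 4.44% higher and 4.44% lower against atg2-4.

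The COP9 signalosome shares its architecture with the lid of the regulatory particle and removes the NEDD8 mark from cullins. Of its 10 genes, 2 were higher and 1 lower in atg2-4, 0 and 1 for lon2-8 and 1 and 2 for double mutants, each against Col-0 with limma. Beside these stand 21.3 and 27.2%, 9.06 and 14.1%, and 22 and 30.1% of all tested genes, so the share higher in atg2-4 is near the background. CSN6A and COP9 rose in atg2-4 by 0.27 and 0.29, and FUS5 fell by 0.11 (limma, adjusted p = 0.00287, 0.0127 and 0.0319). For the 0 in lon2-8, 0 genes were higher at an unadjusted p under 0.05 in limma and 0 in limma voom. Against lon2-8, 1 was higher and 2 lower in the double mutant, and against atg2-4 0 were higher or lower (limma, unadjusted p under 0.05, 0 higher and 1 lower, and limma voom, 0 and 0). The shares of all tested genes were 25.3 and 24.6% against lon2-8 and 4.44 and 4.44% against atg2-4. The interaction passed for 0 of the 10, with 0 at an unadjusted p under 0.05 in limma and 0 in limma voom. Among all tested genes it passed for 7.1% above 0 and 6.08% below.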

How the data were processed

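Per the labels' protocols, poly-A RNA was sequenced as paired-end reads. The deposited expression values are FPKM of each gene. The submitters' processing notes name STAR 2.5.1a and Salmon 0.8.2, then featureCounts 1.4.6-p5 of Subread, and also limma, edgeR and bcl2fastq, with no roles. Genome build and strand setting are not stated there. Per the file headers, the other deposited tables hold log2 fold changes and adjusted p-values (a false discovery rate) for 4 comparisons.

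From the FPKM steps, whole fragments were recovered for 26093 of 26093 genes within 0.01 fragments. The length behind FPKM equalled the RefSeq TAIR10.1 gene span, introns included, less 1 base for 26065 genes and for all 52 members. Replicates differed beyond counting noise in every group. Testing covered 20662 genes that reached 1 FPKM in 3 or more libraries. R 4.3.3 with limma 3.58.1 fitted log2(FPKM + 1) of the 12 libraries with 1 mean per group, moderated with a trend, two-sided, with Benjamini-Hochberg adjustment and a threshold of 0.05. The code was tested on simulated data. Precision is limited by 3 libraries per group. Alternatives were a pseudocount of 0.1, no filter, a filter of 5 FPKM, centred libraries, a fit of the compared groups, a replicate block, each library left out and, chosen after seeing the data, limma voom on recovered fragments.

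The members and lists were chosen with earlier results of these data known. Members named in full were those past the threshold, at most 10 per comparison by adjusted p, and those of highest and lowest level. RPN12b and AT4G15165 were under the filter. In the ubiquitin list 1 gene counted in the totals is not reported here by name. Figures used Python 3.11.15 and matplotlib 3.10.9.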

Additional observations from a re-analysis of the deposited data

Results flagged for a closer look

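For 9 genes of the members and lists the lon2-8 effect differed between the Col-0 and the atg2-4 background, by limma's test of the difference itself. Of the 51 tested members 0 were above 0 and 7 below, beside 7.1% of all tested genes above and 6.08% below. Of 13 tested regulators, assembly factors and alternative subunits 1 was above and 1 below. In the ubiquitin list 0 of 21 passed, and 0 of 10 COP9 signalosome genes. The 7 members had interactions on the log2 scale of -0.30 for PAD2, -0.30 for PAF2, -0.23 for RPN12a, -0.22 for PBF1, -0.21 for RPT2a, -0.20 for PAC1 and -0.20 for ATS9. From the lists beside them, AT1G53780, an ATPase of the regulatory complex, had 0.30 and DSS1(V) had -0.25 (limma, adjusted p = 0.0145 and 0.0392). AT1G53780 was lower than Col-0 in all mutants, with mean FPKM of 11.8 for Col-0, 9.19 for atg2-4, 9.67 for lon2-8 and 9.46 for double mutants.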

How the results depend on the processing

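None of the 71 member calls reversed its sign in the alternatives run, and 37 of them held in all. Differences that did not pass were not followed through the alternatives. Counts that moved by over 1.5 times were these. Lower in atg2-4 against Col-0 (4) became 1 with the compared groups alone and 2 with the replicate block. In lon2-8 against Col-0, centring gave 20 higher in place of 6 and 0 lower in place of 1, and limma voom 11 higher. For the double mutant against atg2-4 the number lower (1) was 2 with the 5 FPKM filter, 0 with centring, 0 with the compared groups alone, 2 with the replicate block and 4 with limma voom. Against lon2-8, centring gave 1 higher in place of 2, and the interaction had 14 lower with centring and 12 with limma voom in place of 7. The cause was not tested.

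Leaving out 1 library at a time gave 5 to 11 higher and 1 to 4 lower in atg2-4, 3 to 8 and 0 to 2 in lon2-8, 3 to 5 and 8 to 14 in the double mutant, 0 to 0 and 0 to 2 in it against atg2-4, 1 to 2 and 16 to 24 against lon2-8, and 0 to 0 and 5 to 10 for the interaction. Same-numbered libraries showed no strong shared deviation, as the correlation of deviations was -0.0572 to 0.0487 over 18 same-numbered pairs with 0 over 0.1. Over the 36 other pairs it was -0.0463 to 0.0571. Whether the samples were handled in matched sets cannot be told from these correlations. The replicate block gave 9 higher in atg2-4, 6 higher and 1 lower in lon2-8, 4 higher and 12 lower in the double mutant, 20 lower against lon2-8 and 6 lower for the interaction. The edgeR and DESeq2 tests planned on recovered fragments were not run, because the deposited unit is FPKM; limma voom was run in their place. Over all genes in atg2-4 against Col-0, limma voom called 4536 higher and 5940 lower. For counts at an unadjusted p, no share of all tested genes was taken. The fit of compared groups alone does not apply to the interaction. Tested members had at least 194 fragments per library, and 3 libraries per group limit the precision.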
